A study of Mus musculus and Homo sapiens with 22 samples.

Results

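Ribosomal protein genes were examined for the sites at which Lin28A, an RNA-binding protein of embryonic stem cells, was crosslinked to RNA. The 81 members were the RefSeq protein-coding genes of the mouse assembly GRCm38.p6 (mm10) named Rpl or Rps followed by a number and at most 1 letter, with Rplp0, Rplp1, Rplp2 and Rpsa, out of 21896 protein-coding genes. Kinases of the Rps6k family were left out. The naming rule also leaves out genes such as Rps3a1, Rack1 and Fau, which encode ribosomal proteins under other kinds of name. The site lists came from V6.5 mouse embryonic stem (mES) cells, either wild type for Mettl3 (WT, 1 sample) or Mettl3 knockout (KO, 1 sample). Mettl3 is the catalytic subunit of the complex that writes N6-methyladenosine on mRNA. Living cells on ice were crosslinked with ultraviolet light, Lin28A was pulled down with an anti-Lin28A antibody, and the RNA fragments that came with it were sequenced (irCLIP). Neither the number of clones nor how Mettl3 was knocked out is stated in the labels. The series has 22 samples; the anti-GFP controls of both genotypes were not analysed here, and the icSHAPE structure probing was not used.

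Ribosomal proteins, together with ribosomal RNA, form the large and small subunits of the cytoplasmic ribosome. Their mRNAs are among the most abundant of growing cells and typically begin with a tract of pyrimidines (a terminal oligopyrimidine, or TOP, start) through which mTOR signalling, acting in part through Larp1, sets their translation. Many of these genes also carry small nucleolar RNAs (snoRNAs) inside their introns, which guide the chemical modification of ribosomal RNA after they are cut out. Lin28A is known for blocking the maturation of let-7 microRNAs, and it also binds many mRNAs, where its zinc knuckles favour GGAG-like sequences.

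The WT list held 10990 sites and the KO list 11285, on a grid of 50 nt, each with the authors' own score and p-value. The scores are the authors' and serve here only to describe and rank sites within a list. Each list was scored on its own, so a score in 1 list and the score at the same place in the other are given side by side, not as a change. With 1 sample per genotype there is no replicate check, no test between the genotypes and no p-value. Intervals are exact (Clopper-Pearson) 95% binomial intervals and cover the counting of sites only. The depth of the libraries is unknown. As a check of the label, all 8 stem cell markers examined held sites in the WT list and 7 in the KO list (Sox2 7 and 11, Pou5f1 6 and 7). Among all protein-coding genes, 15.5% and 16.4% held a site. Col1a1, Col1a2, Thy1 and Twist2, markers of differentiated cells, held none. That says little about the label, because most protein-coding genes held none. RNA level was not measured by these lists: more sites from more RNA, more expressing cells or more binding per RNA cannot be told apart.

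A site was counted for a gene when it lay wholly within the gene's bounds, on the gene's strand, and over no snoRNA gene. Strand came from the RefSeq table of start sites, which held 61 members. The other 20 members were counted on either strand. In the 15 of them with sites, all sites of the gene lay on a single strand in each list. The reference gives no exons, so a position includes introns, and no site can be called exonic or intronic here.

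Annotated mRNA starts with Lin28A sites at or near them are shown because the start can carry the pyrimidine tract. In 7 members, sites of both lists lay over at least part of the first 50 nt after an annotated start. For each, the 30 bases from 5 before to 25 after the start are given, 5′ to 3′, from RefSeq (GRCm38.p6). Capitals mark the longest unbroken run of C and T where it reaches 5 bases. For Rps19 the start at the outer bound of the gene is the one shown.
Rpl13a (chr7:45128721-45128750, minus strand): gacaagaCCTCCTCCTTTCCCaggcggctg
Rplp2 (chr7:141447646-141447675, plus strand): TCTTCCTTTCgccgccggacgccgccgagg
Rpl38 (chr11:114668575-114668604, plus strand): tcgTTCTTTCCCCgttctcttcggttctca
Rps9 (chr7:3704036-3704065, plus strand): CTCTCTTTgtctcgggcctgagttcgtagg
Rpsa (chr9:120127761-120127790, plus strand): taaggacgtcaTTTCCggccgcccgtcctt
Rps19 (chr7:24884587-24884616, plus strand): cgcgagactcgacgcccgacttgtgcgccc
Rpl4 (chr9:64173382-64173411, plus strand): tgtgggagcagccgggtagagaggagcgtg

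Anywhere in the 30 bases, Rpl13a, Rplp2, Rpl38 and Rps9 had runs of 14, 10, 10 and 8 pyrimidines, Rpsa had 5, and Rps19 and Rpl4 had none of at least 5. Counted from a C at the annotated start itself, the run was 8 in Rpl38, 5 in Rplp2 and 0 in each of the others. The Rpl38 and Rps9 starts shown lie 762 and 87 nt inside the outer bound of the gene. Their sites began 21 and 10 nt after the start, past the runs in capitals. The Rplp2 site began at the start and so took in only part of its run. In Rpl13a and Rpsa the sites began before the start and took in the runs. Across the 73 start windows of members, 25 (34.2%) held a run of at least 8 within these 30 bases, against 10.1% of all 21262 protein-coding start windows. Sites covered at least part of the first 50 nt of 13 member windows (17.8%) in at least 1 list, against 1.01% of all protein-coding start windows. The 13 windows belong to 11 members, because in Rps19 and Rps21 the same site lay over more than 1 window. Of the 13 windows, 4 held such a run, and 60 windows were uncovered, 21 of them with such a run. The letters GGAG, searched on the transcribed strand in the first 50 nt, were present in 14 member windows (19.2%) and in 37.9% of all windows. They occurred in 4 of the 13 covered windows and 10 of the 60 uncovered ones. Rpl13a and Rpl4 were among the covered members with GGAG. Whether the GGAG itself lay under a site was not counted. In Rpl4 the WT site ended before the GGAG printed after the start, and the KO site reached past it. RefSeq starts need not be the exact start used in these cells, and a sequence match is a description only.

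Lin28A sites outside snoRNAs lay in 39 of the 81 ribosomal protein genes (48.1%) in the WT list and in 43 (53.1%) in the KO list, so the name of the group as bound by Lin28A describes 44 members and not all 81. Among all protein-coding genes, 15.5% held such a site in the WT list and 16.4% in the KO list. The members were short, with a median gene length of 3175 nt against 17149 nt for all protein-coding genes. Of these 44 members, 38 held a site in both lists (all protein-coding genes in both lists: 13.3%). The members held 102 WT and 114 KO sites, which were 1.22% (0.994 to 1.48) and 1.32% (1.09 to 1.59) of all sites counted in protein-coding genes. Members with a site had a median of 2 in each list, against 1 for all protein-coding genes with a site. Genes with a WT site were long in general, with a median of 32031.5 nt over all protein-coding genes, so sites per length are not compared. None of the counted sites overlapped another annotated gene apart from a microRNA gene, which lay under 1 site in each list.

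**Figure D1:**
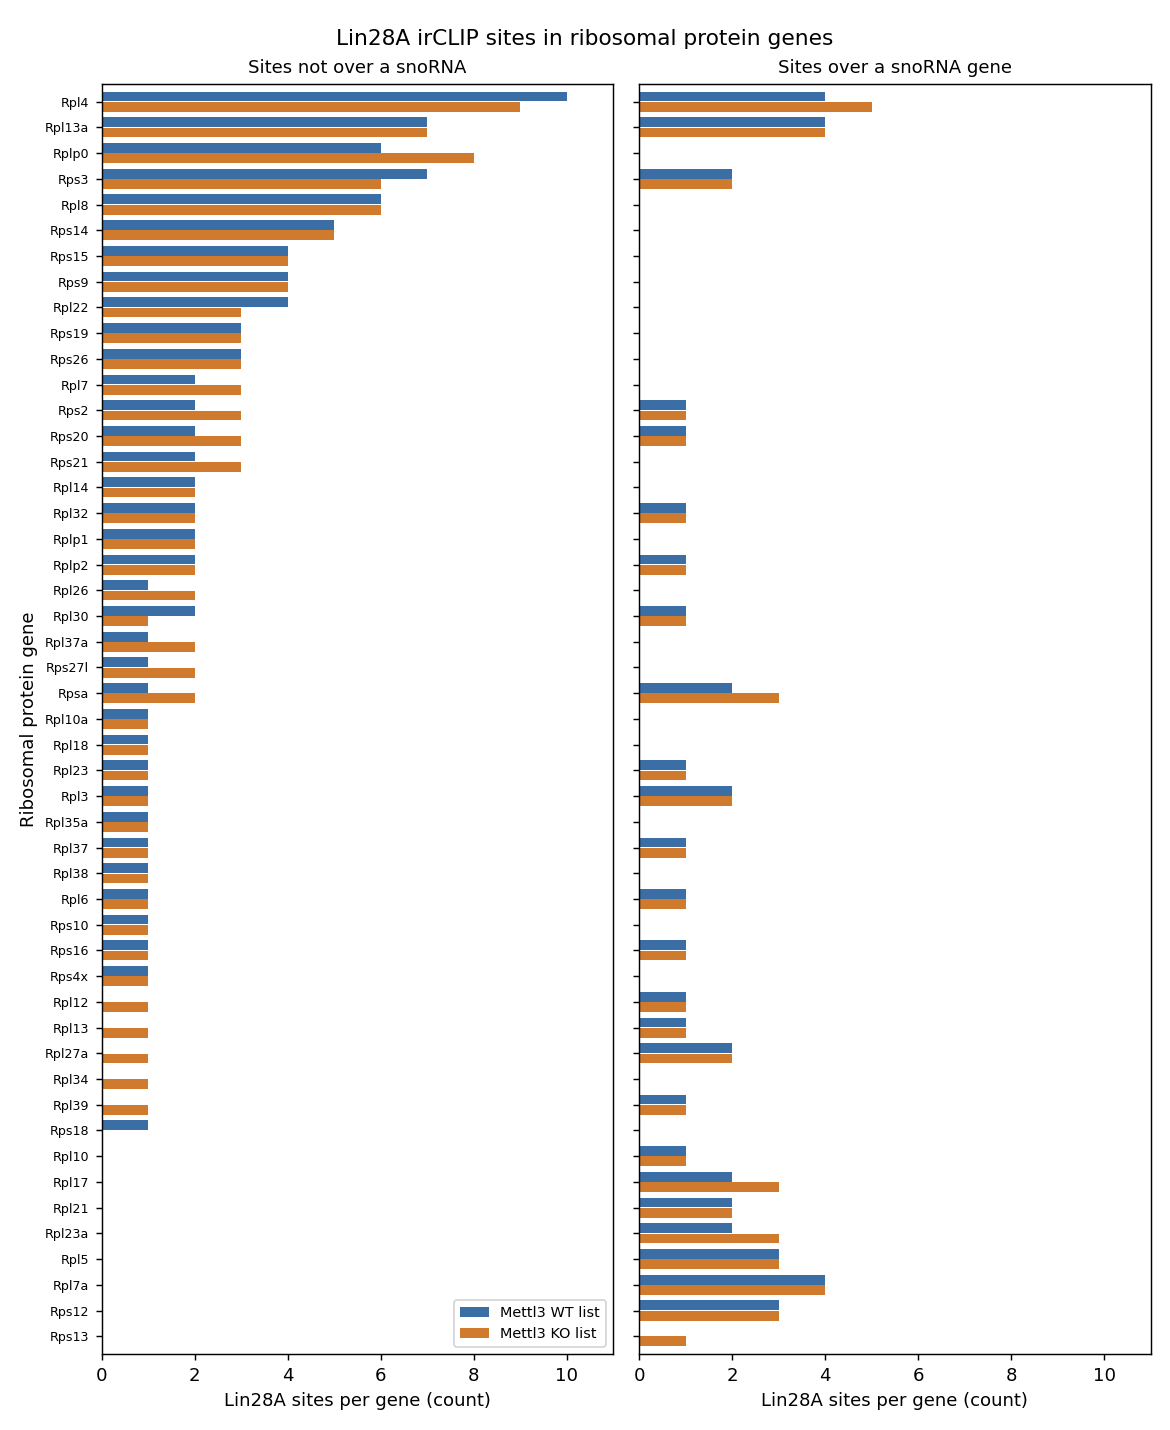
Number of Lin28A sites per ribosomal protein gene (horizontal axis) in the Mettl3 WT list (blue) and the KO list (orange), for genes with any site (a few that are not reported here by name are left out); the left panel shows sites not over a snoRNA and the right panel sites over a snoRNA gene. Rpl4 leads in the left panel. In the right panel it leads by KO sites (5), while its 4 WT sites are matched by Rpl7a and Rpl13a. The WT and KO bars differ by at most 2 sites in the left panel, and genes at the bottom have sites over snoRNAs only.

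Among the proteins of the large subunit, Rpl4 held the most sites, 10 in the WT list and 9 in the KO list, over a gene of 5176 nt (chr9:64173387-64178562, plus strand). Its highest WT score outside snoRNAs was 121, at a 150-nt site from 3964 nt after the gene start, and the same place held the highest KO score, 96. Sites ran through the gene from 1514 nt after its start to 62 nt before its end, with 1 more across the start in each list. Rpl4 differed by 1 site because a KO site of 300 nt near the end covers 2 WT sites. Rpl13a held 7 sites in each list on a gene of 3183 nt (chr7:45125563-45128745, minus strand). From the 3′ end, the Rpl13a sites scored 38, 59, 198, 31, 22, 39 and 52.5 in the WT list and 15, 47, 144, 23, 16, 34 and 55 in the KO list. All 7 had the same bounds in both lists, and the third of these, 2195 nt after the gene start, was the highest in each. Rpl13a is also known as a translational repressor released from the ribosome in inflammatory signalling. Rpl8 (chr15:76904071-76906318, strand not in the reference), whose protein lies near the catalytic centre of the ribosome, held 6 sites in each list. Along the chromosome the Rpl8 sites scored 144, 115, 108.6, 120, 50 and 46.5 in the WT list and 159, 124, 103.8, 73.7, 37 and 35.5 in the KO list. The sites covered 850 of the gene's 2248 nt in each list. Rpl22, which has the paralog Rpl22l1, held 4 and 3 sites with low scores of at most 23 and 24.

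The acidic stalk, the flexible arm that recruits translation factors to the large subunit, was covered in all 3 of its genes. Rplp0, which anchors the stalk (chr5:115559467-115563729, plus strand), held 6 WT and 8 KO sites. It had the highest-scoring site of all members outside snoRNAs, 335 in the WT list and 299 in the KO list, at a 50-nt site ending 279 nt before the gene's end. That site ranked above 98.9% of the WT list and 98.8% of the KO list. In order from the 5′ end, the 6 WT sites scored 16, 31, 117, 39, 33.5 and 335. The 8 KO sites scored 16, 15, 33.5, 105, 14, 30, 30.7 and 299. A pair of high sites thus stood out in both lists, and the rest scored at most 39 and 33.5. Only the KO list had the Rplp0 sites at 34 nt and at 1584 nt after the gene start, with scores of 16 and 14, near the lowest score in that list (12). Rplp1 and Rplp2, which form the tip of the stalk, held 2 sites each in both lists. For Rplp1 the highest scores were 64 and 51. The Rplp2 site over the gene's first 50 nt, shown above as sequence, scored 22 and 21.

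In the small subunit, Rps3, a protein at the mRNA entry channel that also acts in DNA repair, held 7 WT and 6 KO sites (chr7:99477896-99483709, minus strand). From the 3′ end, its WT sites scored 179, 108.2, 13, 60.5, 67.3, 55 and 85. The KO sites scored 95.5, 96.4, 42.7, 59.3, 56.3 and 72. Each KO site overlapped a WT site, and the WT site of score 13 had no KO partner. Rps14 held 5 sites in each list. Scores in Rps14, a gene whose human counterpart is lost from a single copy in an anaemia-causing myelodysplastic syndrome, were highest within 100 nt of each gene bound in the WT list, at 139 and 136. In the KO list the same sites scored 67 and 100, beside 101 for a site inside the gene. Rps9 and Rps15 held 4 sites in each list, with highest scores of 80.7 and 81.3 for Rps9 and of 43 in both lists for Rps15. Rps26 and Rps2 had fewer sites, but each held 1 of high score. The Rps26 site ended 22 nt before the gene's end and scored 216 in the WT list and 140 in the KO list, while its other 2 sites scored at most 36 and 43. In Rps2 the leading site scored 162 and 140, and the other counted sites at most 24 and 20.

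Sites in these genes scored above most others of their list. The median score was 35 over the 102 WT sites and 30.8 over the 114 KO sites, where all sites in protein-coding genes had 19 and 18. A score of at least 50 was reached by 33.3% (24.3 to 43.4) of member sites and 10.1% (9.50 to 10.8) of all protein-coding sites in the WT list. In the KO list 27.2% (19.3 to 36.3) of member sites and 8.85% (8.26 to 9.47) of all protein-coding sites reached it. Such a site was held by 16 WT and 17 KO members (19.8% and 21.0%), where the background was 3.12% and 2.95% of protein-coding genes. This describes the lists and was not tested, and the RNA level of the genes cannot be separated from it.

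**Figure D2:**
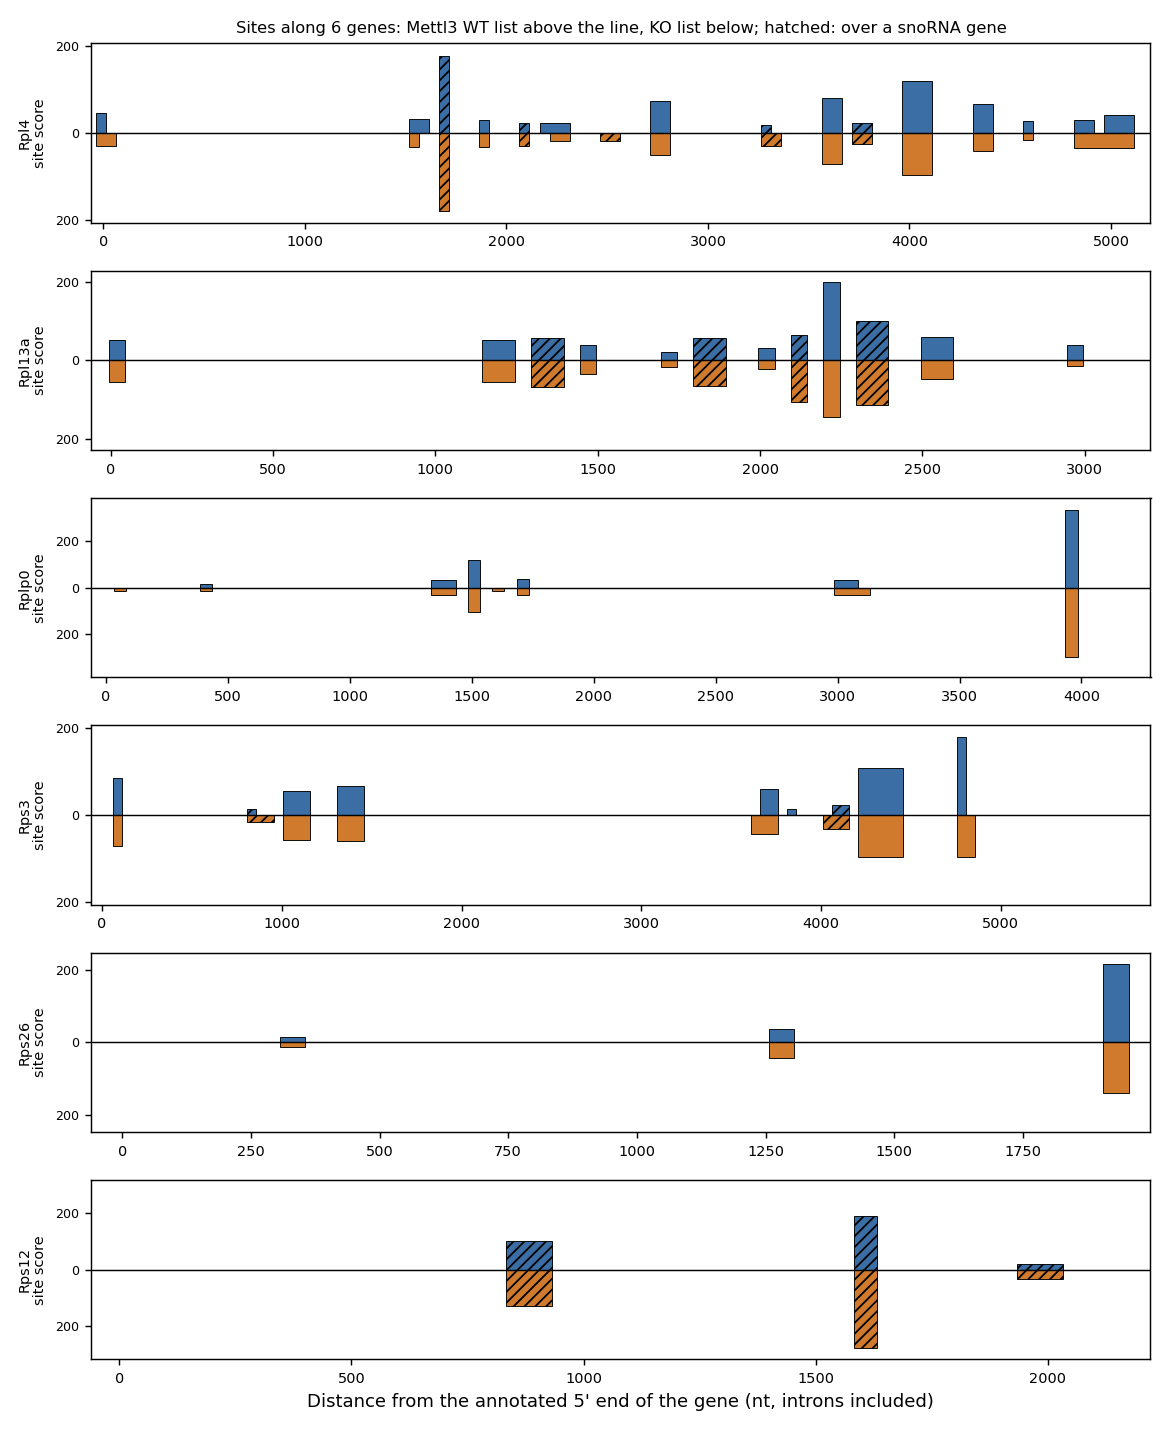
Sites along Rpl4, Rpl13a, Rplp0, Rps3, Rps26 and Rps12, as distance from the annotated 5′ end of the gene in nt (horizontal axis) against the authors' site score (vertical axis), with the WT list above and the KO list below the line. Bar widths are to scale and hatched bars lie over snoRNA genes; the bars of both lists fall at nearly the same places, with the tallest Rplp0 and Rps26 bars close to the gene's end.

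Mettl3 WT and KO cells gave nearly the same map of Lin28A sites over these genes. Site numbers differed by at most 2 in every member. Of the 44 members with a site, 23 had equal numbers, 16 had more in the KO list and 5 more in the WT list. The KO share of member sites was 52.8% (45.9 to 59.6), and that of all protein-coding sites was 50.7% (49.9 to 51.5), within the former interval. Most sites are in both lists and so are not independent, which this interval does not take into account. Rplp0 was the single member to differ by 2. The KO share was 53.1% (42.7 to 63.2) for the large subunit without the stalk, 52.1% (41.6 to 62.4) for the small subunit and 54.5% (32.2 to 75.6) for the stalk.

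The positions were largely shared. Of the WT member sites, 95.1% (88.9 to 98.4; 97 of 102) overlapped a KO site on the same strand, and 84.2% (76.2 to 90.4; 96 of 114) of the KO sites had a WT partner. Over all protein-coding sites the values were 73.3% (72.3 to 74.2) and 71.1% (70.1 to 72.1). Score moved with this share: over all protein-coding WT sites, those with a KO partner had a median score of 23 and those without had 15. Member sites were also more often wider than 50 nt: 62.7% of WT and 70.2% of KO member sites were 50 nt wide. Over all protein-coding sites 85.0% and 85.6% were. The part of score and width in the higher share of the members was not tested. The WT sites without a partner were 5, in Rpl22, Rpl30, Rps18, Rps27l and Rps3, with a median score of 15 and at most 28. The 18 KO sites without a partner had a median score of 14 and at most 25. Part of them lay below the lowest WT score: the WT list began at 13 and the KO list at 12, and 4 of the 18 scored under 13. With a minimum of 13 in both lists, chosen after seeing the data, 106 KO sites were left beside 102 WT sites and the KO share was 51.0%.

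Members with counted sites in a single list had 1 such site each, with scores between 13 and 28. Rps18, a small-subunit protein at the head of the ribosome, had a WT site of score 28 and none in the KO list (protein-coding genes with a WT site only: 2.27%). Rpl12, Rpl13, Rpl27a, Rpl34 and Rpl39 had KO sites only, with scores of 13, 13, 21, 25 and 20 (protein-coding genes with a KO site only: 3.17%). Of these, all but Rpl34 also held a snoRNA site in both lists. Rpl13 also had a site across its 3′ bound in both lists, which was not counted and scored 41 in the WT and 45 in the KO list. The stress-related paralog of Rps27, Rps27l, which p53 induces, had 1 WT and 2 KO sites, none of them overlapping. The WT site scored 25 and the KO sites 17 and 13.

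Along the gene, sites outside snoRNAs were spread over the whole body, with the most in the final 20%. Sites over snoRNAs are left out here. Of those, 11.8% of 34 WT and 10.8% of 37 KO sites lay in the final 20%, and 38.2% and 32.4% in the 20% before it. Among the 61 members with a strand, 29.6% (19.3 to 41.6) of 71 WT sites and 28.8% (19.2 to 40.0) of 80 KO sites had their middle in the final 20% of the gene. Over all protein-coding genes with a strand, 41.8% and 43.5% did, both just above these intervals. The intervals of the members include 20%, the share of an even spread. The opening 20% held 19.7% of the WT and 21.3% of the KO sites of members, against 14.9% and 14.1% over all genes. Sites ending within 100 nt of the gene's 3′ end numbered 4 in the WT list, in Rpl4, Rpl26, Rps15 and Rps26. The KO list had these and 4 more, in Rpl27a, Rpl34, Rpl37a and Rpl39, scoring 21, 25, 12 and 20. This group of 4 was picked out after its values were seen. At the 5′ end, 5 WT and 8 KO sites began within 100 nt of the gene start, and the KO list alone had those of Rpl13 (13), Rplp0 (16) and Rps21 (12).

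**Figure D3:**
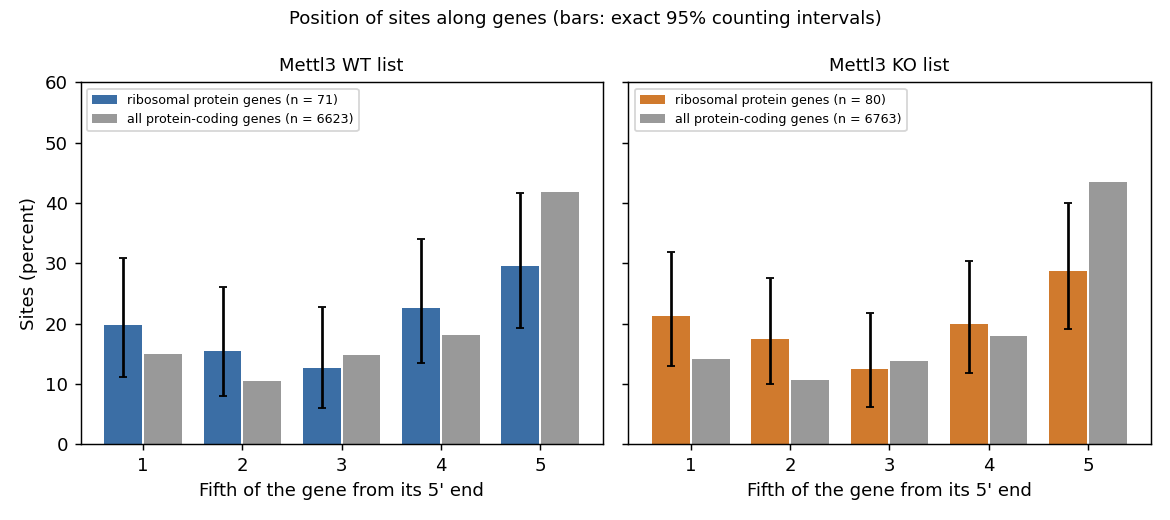
Percent of sites in each of 5 equal parts of the gene from its 5′ end (horizontal axis), for ribosomal protein genes (colour) and all protein-coding genes (grey), in the WT list (left) and the KO list (right); error bars are exact 95% counting intervals. The final part holds 29.6% and 28.8% of member sites against 41.8% and 43.5% over all genes. Introns are included and sites over snoRNAs are left out.

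The snoRNAs inside these genes formed a second set of sites, kept apart because such a site may lie on the snoRNA, on the host transcript or on both. RefSeq places 58 snoRNAs wholly inside 29 members. Each of these hosts held a site over a snoRNA in the KO list and 28 did in the WT list, the exception being Rps13, whose Snord14a had a KO site of score 18 only. Over all protein-coding genes, 0.315% held such a site in the WT list and 0.374% in the KO list, a background that depends on which genes contain snoRNAs. Of the 58 snoRNAs, 51 had a WT site and 56 a KO site on the host's strand. The pair without one were LOC115488570 in Rpl3 and Snora78 in Rps2. Snora78 instead had sites on the opposite strand, where Snhg9 is annotated, with scores of 45 and 33. Both Snord genes, which guide 2′-O-methylation, and Snora genes, which guide pseudouridylation, were covered: 18 and 21 of 21 Snord and 11 and 11 of 12 Snora. The other 25 snoRNAs carry other kinds of name, and 22 and 24 of them were covered. The share of all snoRNA genes with a site was not worked out, so this coverage cannot be called particular to these hosts. Over the whole lists, 173 WT and 202 KO sites lay over a snoRNA.

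Some members were on the lists only through their snoRNAs. Members with no counted site outside snoRNAs in either list included Rpl5, Rpl7a, Rpl10, Rpl17, Rpl21, Rpl23a, Rps12 and Rps13. Rpl7a held 4 sites over 4 snoRNAs in both lists. In Rps12, whose transcript carries Snora33, Snord100 and LOC115487513, the sites over them scored 20, 192 and 102 in the WT list and 33.5, 276 and 128 in the KO list. Rpl5, which binds the 5S ribosomal RNA and Mdm2, had 3 sites in each list, all over Snord21, Gm22270 and Gm26387, with scores from 28.5 to 52.5 in the WT list and from 44 to 71.5 in the KO list. Rpl3, which carries Snord83b and Snord43, held WT sites of 60 and 38 and KO sites of 126 and 111 over them. The only Rpl3 site elsewhere scored 13 and 19. The highest WT score over a snoRNA, 248, lay over LOC115485682 in Rpsa, which encodes both a ribosomal protein and a laminin receptor; the KO score there was 117. In Rpl4, the site over Gm23344 scored 177 and 180, above every other site of the gene in both lists.

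In Rpl13a, Snord35a scored 101 and 114, Snord34 65 and 107, Snord33 56 and 65 and Snord32a 57.5 and 68.5 in the WT and KO lists. A KO score of 133 lay over LOC115490074 in Rps20, where the WT score was 42. Snord68 in Rpl13 followed with 69.5 and 80.5, and in Rpl23a Snord42a had 60 and 90 and Snord42b 48 and 89. Rpl17, which lines the peptide exit tunnel, had 37 and 82 over Gm23301 and 31 and 41.5 over Gm26202. Snora65 in Rpl12 scored 26 and 64.5, and Snora64 in Rps2 scored 30.3 and 61. Intermediate pairs were 37.3 and 53.7 for Snora7a in Rpl32, 26.3 and 49.5 for Snora52 in Rplp2, 32 and 51.5 for AF357399 in Rps16 and 34.7 and 48 for Snora62 in Rpsa. Low pairs were 28.7 and 39.3 for Snora70 in Rpl10, 27 and 38.5 for Snord72 in Rpl37 and 33 and 35.7 for LOC115490270 in Rpl6. Rpl27a had 25.7 and 35.3 over Snora3 and 14.5 and 42 over LOC115485611, and Rpl30 had 19.5 and 30 over LOC115488553. Rpl21 had 30 in the WT list over both of its snoRNAs, LOC115490268 and LOC115490276, and 25.5 and 44 over them in the KO list. The pairs were 23 and 33 for Snord15b and 14 and 16.3 for Snord15a in Rps3, and 18 and 27.5 for Snora69 in Rpl39. In Rpl23, Snora21 scored 26 and 22.5.

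The median score of sites over snoRNAs was above that of the other member sites within the KO list and slightly below it within the WT list. The median KO score was 44 over 56 snoRNA sites and 30.8 over 114 other sites. The WT medians were 33 over 51 and 35 over 102. Of the 16 hosts with both kinds of site in both lists, the top-scoring site lay over a snoRNA in 7 by WT scores and in 10 by KO scores. Across the whole lists, sites over any snoRNA had a median of 32 (n = 173) in the WT list and 39.2 (n = 202) in the KO list, where sites elsewhere had 20 and 18.7. With 1 sample per genotype this difference between the lists was not tested. All 51 WT snoRNA sites overlapped a KO site, and 51 of the 56 KO sites had a WT partner. The snoRNAs with a KO site only were Snord58b in Rpl17, Snord4a in Rpl23a, Gm22571 in Rpl4, Snord14a in Rps13 and Gm26448 in Rpsa, with scores from 18 to 34.

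**Figure D4:**
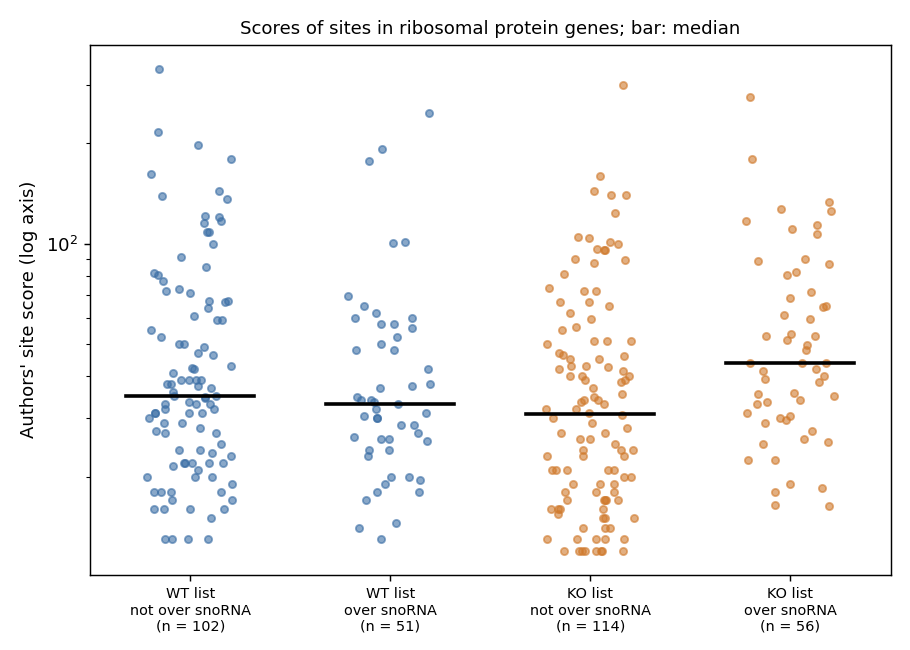
Authors' site score (log axis) of each site in ribosomal protein genes, for sites not over and over a snoRNA gene in the WT list (blue) and the KO list (orange); points are sites and black bars medians. The medians are 35 and 33 in the WT list and 30.8 and 44 in the KO list, and the lists were scored separately.

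No site of either list lay within the bounds of 28 members on their strand. In the large subunit these included Rpl9, Rpl11, Rpl15, Rpl19, Rpl24, Rpl27, Rpl28, Rpl29, Rpl31, Rpl35, Rpl36, Rpl36a and Rpl41, and in the small subunit Rps6, Rps7, Rps15a, Rps23, Rps24, Rps25, Rps27, Rps27a, Rps28 and Rps29. Also without sites were the paralogs Rpl3l, a striated muscle form, Rpl10l and Rpl39l, testis forms, and Rpl32l. Most of the 28 are core proteins of every ribosome, among them Rps6, the main target of S6 kinase, and Rpl11, which with Rpl5 restrains Mdm2. Members with a site here include those with sites over snoRNAs only. Each of the 29 snoRNA hosts had a site over a snoRNA, so by this grouping none of the 28 could contain a snoRNA. By sites outside snoRNAs, 20 of the 29 hosts and 24 of the 52 other members held a site in at least 1 list. The 28 had a median gene length of 3116 nt, against 3183 nt for the 53 members with a site. Ribosomal protein genes have many processed pseudogenes, and reads that match several copies may be lost or moved depending on the alignment, and the labels do not say how such reads were handled. By names ending in -ps alone, which miss many copies, members without a site had a median of 2 pseudogenes (0 to 23) and members with a site also 2 (0 to 23). The part of multiply matching reads in the missing sites was not tested. An empty gene here means that no site was called, not that Lin28A was absent.

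Other genes of the ribosome and its mRNA class gave the following counts, with sites over snoRNAs again set apart. The gene lists were fixed with earlier results of these data known. Of 7 ribosomal protein genes outside the naming rule, 3 (42.9%) held sites in both lists (all protein-coding genes: 13.3%). Among them were Rack1, a signalling scaffold on the small subunit (7 and 7), and Rpl7l1 (1 and 2). Fau, Rpl22l1, Rpl36al and Rps27rt held none. Rps3a1, added after its values were seen, held 2 WT and 1 KO sites. Of 15 other mRNAs with a TOP start, 13 held WT and 14 KO sites (all protein-coding genes: 15.5% and 16.4%), 92 and 95 in all, led by the elongation factor Eef2 (22 and 21), the initiation factor Eif4b (13 and 13) and the poly(A)-binding protein Pabpc1 (12 and 15). Vim held none. Those genes had a median length of 11140 nt.

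Genes of mitochondrial ribosomal proteins, which build the separate ribosome of mitochondria, held fewer sites than the cytoplasmic members. Of 78 such genes, 25 (32.1%) had a WT site and 28 (35.9%) a KO site (all protein-coding genes: 15.5% and 16.4%). They held 37 and 44 sites in all, led by Mrpl2 (5 and 4), Mrpl15 (4 and 5) and Mrpl17 (3 and 4). Sites were in both lists for 16 of these genes. Their median length was 7690.5 nt, more than that of the cytoplasmic members. Of 18 ribosome assembly genes found, 13 (72.2%) held sites in each list, against the same 15.5% and 16.4%. They held 51 and 60 in all, with Ncl, or nucleolin, at 17 and 20, and Nap1l1, a histone chaperone on the TOP list as well, at 8 and 10. Npm1, also on that list, held 5 and 6. Among 9 regulators, 7 (77.8%) held WT and 5 (55.6%) KO sites, beside the same background. Igf2bp1 had 30 and 30, Lin28a itself 6 and 5, and Larp1, the TOP-binding repressor, 6 and 4. The largest difference among the regulators, singled out after its values were seen, was in Eif4ebp2, an inhibitor of cap-dependent translation, with 5 WT sites and none in the KO list. The share with a site was not compared by a test, and these lists differ in gene length. The median was 11987.5 nt for the assembly genes and 46017 nt for the regulators.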

How the data were processed

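Lin28A irCLIP site lists from 1 Mettl3 WT and 1 KO sample of V6.5 mES cells were used. Per the submitters' processing notes, Bowtie2, UMI-tools and mm10 were used in the series, with no versions. How sites were called, against which control and with which cutoff is not stated. The score deposited by the authors is a whole number for 50-nt sites, and what it counts is not stated. The p-value deposited by the authors was not used in any result. Sites were assigned to RefSeq genes (GRCm38.p6) with Python 3.11.15, pandas 2.3.3 and scipy 1.17.1, and overlap between lists required 1 nt on the same strand. Counting was tested on simulated data: all 200 of 200 genes were recovered. Genes were named by a rule: the 10 with most sites, count differences of at least 2, the 5 highest scores per list, single-list members, snoRNA hosts and members without sites. Members and lists were chosen with earlier results of these data known. Alternatives changed the score minimum, bounds, strand, snoRNA handling and overlap. No sites of the anti-GFP controls were analysed here, so no background level can be given. A few genes are not reported here by name and enter only the counts over all members and lists.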

Additional observations from a re-analysis of the deposited data

How the results depend on the processing

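Counts over all members and the KO share kept their values within 1.5 times, or within the counting interval, under 4 alternatives: sites sharing 1 nt with the gene, either strand, sites over another gene left out, and snoRNA sites counted. The third could change nothing, since no counted site overlapped another gene apart from a microRNA gene. With snoRNA sites counted, WT sites went from 102 to 153, at that limit, and KO sites from 114 to 170. Members with a site went from 39 to 51 in the WT list and from 43 to 52 in the KO list. Rpl13a then went from 7 to 11 sites in each list and Rpl4 from 9 to 14 in the KO list. With a score of at least 50, 34 WT and 31 KO sites in 16 and 17 members remained, as a stricter limit must leave fewer, and 85.3% of WT and 93.5% of KO sites overlapped a site of that score in the other list. With sites at or above the median of their list, 95.1% of KO sites overlapped a WT site, and the KO share was 48.8%. With a minimum score of 13 in both lists, chosen after seeing the data, 91.2% of WT and 86.8% of KO sites had a partner. Counting 50-nt units gave 160 WT and 172 KO units, since many sites are wider. Requiring identical bounds gave 77.5% of WT and 69.3% of KO sites in common. The median position lay at 63.4% of the gene in the WT and 58.2% in the KO list. By distance the medians were 1512 and 1475 nt from the 3′ end, so the KO sites lay farther from that end by the former measure and nearer by the latter. No paired analysis was possible because each genotype has 1 sample. Read depth is unknown, so no read-counting error can be given for a site.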

Other observations

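On the strand opposite to members with a known strand, each list had 3 sites, in Rpl10, Rpl13a and Rps2. The Rpl10 site scored 16 in the WT list and 18 in the KO list, and the Rpl13a site, within 100 nt of the gene start, scored 28 and 18. A further 10 sites in each list crossed a gene bound, among them those over the starts of Rpl4 (46 and 29), Rpl13a (52 and 54) and Rpsa (21 and 26) and that over the 3′ end of Rpl13 (41 and 45).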
